A study of Homo sapiens with 6 samples.

Results

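The aminoacyl-tRNA synthetases are the enzymes that join each amino acid to its own tRNA, the step that sets the genetic code before a ribosome reads it. Human cells keep a cytosolic set and a separate, nuclear-encoded set for the ribosomes inside mitochondria, whose genes carry a 2 at the end of the name. Several cytosolic enzymes sit in the multisynthetase complex, held together by the scaffold proteins AIMP1, AIMP2 and EEF1E1. When amino acids run short, uncharged tRNA activates the kinase GCN2, translation of the transcription factor ATF4 increases, and many cytosolic synthetase genes are among the genes that ATF4 is known to switch on.

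The genes were taken from the count table by a list of 36 symbols, 20 cytosolic and 16 mitochondrial, and all 36 were found among the 54261 symbols. Symbols are the older forms used in the table (AARS for AARS1, and so on). The cells were 786-O, a human cell line established from a clear cell renal carcinoma and grown in RPMI-1640 medium with 10% fetal bovine serum. One group carried PHF8 guide RNA delivered with CRISPR-Cas9 and is labelled PHF8 knockout (3 libraries), and the other carried control guide RNA and is labelled PHF8 wild type (3 libraries). PHF8 is a histone demethylase. Whether the edited cells were cloned or pooled is not given, nor is the origin of the 3 libraries of each group, so the p-values rest on a spread between libraries that could be technical only.

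Library totals ran from 25632275 to 29095133 reads in knockout libraries and from 21533615 to 25055762 reads in control libraries. PHF8 itself had 10.8, 6.73 and 12.8 CPM (read counts scaled by library size and TMM factor) in knockout libraries 1, 2 and 3, against 36.5, 35.0 and 32.9 CPM in control libraries 1, 2 and 3. This is a log2 fold change of -1.78 (SE 0.21) in edgeR's quasi-likelihood test, with an adjusted p of 1.19e-04. Knockout library 2 stood apart from the other 2 knockout libraries: the chi-square per degree of freedom of its counts was 74.3 and 57.5 against libraries 1 and 3, which differed from each other by 11.1. Of the genes listed for a renal epithelial carcinoma line, PAX8, KRT8, KRT18, VIM, MET and EPAS1 were above 100 CPM in each library. PAX2 was under 8 CPM and CA9 under 1 CPM. PAX8 and KRT18 passed as higher (log2 fold change 0.70 and 0.33), and MET and PAX2 as lower (-1.07 and -1.08), while KRT8, VIM, EPAS1 and CA9 did not pass. Of the markers of other cell types, PTPRC, CD3E and CDH5 were at 0 reads, VWF, PDGFRA and DCN had at most 4 reads in a library, and PECAM1 and COL1A1 had 7 to 29 reads and did not pass. LUM, a matrix gene of fibroblasts, had 7, 1 and 5 reads in knockout and 17, 36 and 27 reads in control libraries (log2 fold change -2.61, edgeR adjusted p = 0.00182). CD68 passed as higher and was at 112 to 121 CPM in knockout and 43.5 to 47.7 CPM in control libraries.

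The median synthetase gene was somewhat higher in knockout cells, but the set did not move as one. Of 19 tested cytosolic genes, 10 rose, 2 fell and 7 did not pass an adjusted p of 0.05, with a median log2 fold change of 0.29. Of 15 tested mitochondrial genes, 8 rose, 2 fell and 5 did not pass, with a median of 0.51. Over all 14398 tested genes 28.9% rose and 30.8% fell by the same rule, 59.7% in all, and the median was -0.01. Rises thus took 52.6% of the cytosolic and 53.3% of the mitochondrial genes, and falls 10.5% and 13.3%. All 3 knockout libraries lay above all 3 control libraries in 10 cytosolic and 9 mitochondrial genes (32.6% of all tested genes) and below them in 3 and 2 (34.2% of all tested genes). Past 2-fold there were 3 cytosolic and 0 mitochondrial rises (9.2% of all tested genes) and 0 falls in either set (14.2% of all tested genes). Scaled by library totals alone, which moved the median of all genes to -0.18, 7 cytosolic genes rose and 5 fell (21.9% and 37.8% of all tested genes), and 7 mitochondrial genes rose and 2 fell. Without knockout library 2, 5 cytosolic and 3 mitochondrial genes fell (33.3% of all tested genes), and 10 and 8 rose (31.7%).

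As a share of all reads, the cytosolic genes together took 0.407%, 0.428% and 0.423% in knockout libraries 1, 2 and 3, against 0.374%, 0.383% and 0.387% in control libraries. The mitochondrial genes took 0.0686%, 0.0686% and 0.0689% in knockout libraries and 0.0697%, 0.0685% and 0.0680% in control libraries. The cytosolic share was higher in every knockout library than in any control library, while the ranges of the mitochondrial share overlapped. In bulk RNA a change in the amount per cell cannot be told apart from a change in the mix of cells.

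**Figure D1:**
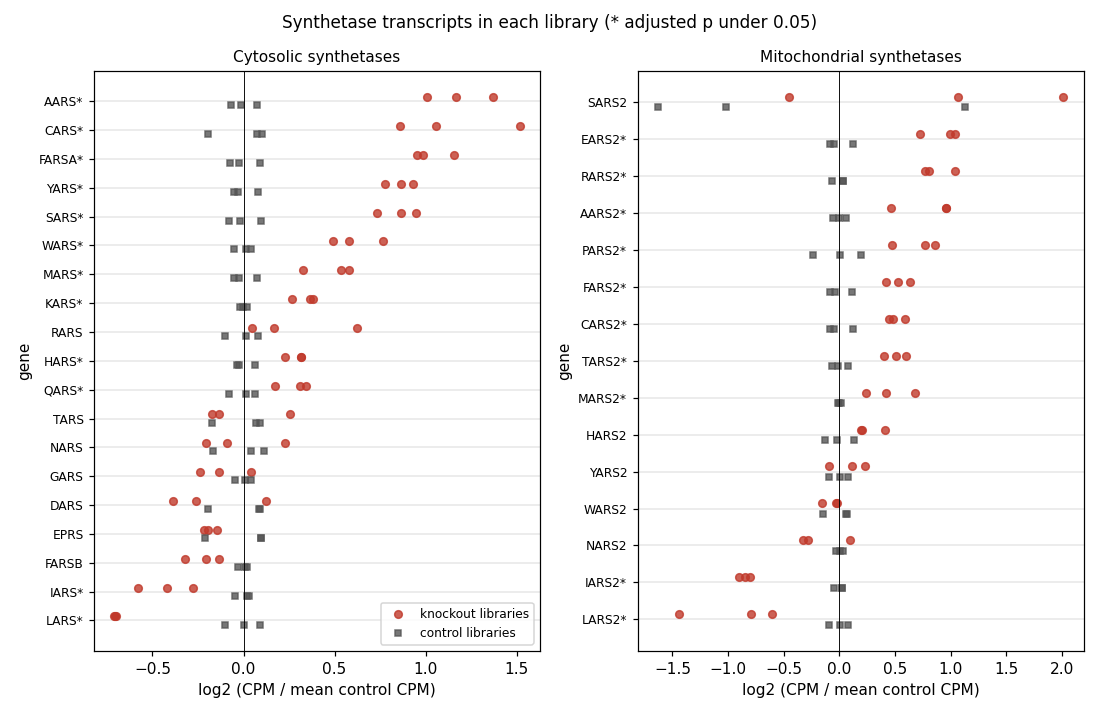
Level of each tested synthetase gene in each library, as log2 of its CPM over the mean control CPM (x axis), with genes ordered by fold change (y axis); red circles are the 3 knockout libraries, grey squares the 3 control libraries, and an asterisk marks an adjusted p under 0.05. AARS, CARS and FARSA lie at the top of the cytosolic panel with log2 fold changes of 1.19, 1.17 and 1.04, and LARS at the bottom with -0.70; SARS2 in the mitochondrial panel is spread over both groups.

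AARS, the alanyl-tRNA synthetase gene (chromosome 16, 70251983 to 70289707, GRCh38), had 553, 495 and 637 CPM in knockout libraries 1, 2 and 3, against 260, 244 and 235 CPM in control libraries 1, 2 and 3. Its log2 fold change of 1.19 (SE 0.11, edgeR adjusted p = 4.35e-05) was the highest among the called synthetase genes. CARS, for cysteine (chromosome 11, 3000922 to 3057613), had 28.7, 20.8 and 18.2 CPM in knockout libraries, against 8.77, 10.6 and 10.8 CPM in control libraries (log2 fold change 1.17, SE 0.18, edgeR adjusted p = 6.07e-04). In both genes the groups were apart, and knockout library 1 was the highest of the 3 for CARS.

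FARSA and FARSB encode the alpha and beta subunits of one enzyme, which charges phenylalanine as a tetramer of both. FARSA (chromosome 19, 12922479 to 12934037) had 227, 231 and 261 CPM in knockout libraries, against 125, 115 and 111 CPM in control libraries, a 2.05-fold rise (edgeR adjusted p = 4.67e-05). FARSB (chromosome 2, 222566899 to 222656092) had 123, 129 and 113 CPM in knockout libraries, against 139, 142 and 144 CPM in control libraries. FARSB lay lower in each knockout library than in any control library but did not pass the test (log2 fold change -0.22, SE 0.09, adjusted p = 0.061). The ratio of FARSA to FARSB reads was 1.84, 1.79 and 2.30 in knockout libraries and 0.897, 0.808 and 0.773 in control libraries. The difference in log2 ratio was 1.25 (exact permutation test, two-sided, p = 0.1, the smallest that 3 against 3 libraries allow). With an offset for each library's trends along GC content and transcript length, FARSA was at a log2 fold change of 0.46 and FARSB at 0.64, and both passed as higher.

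The next rises were in the tyrosine, serine and tryptophan enzymes. YARS (chromosome 1, 32775237 to 32818031) had 372, 350 and 390 CPM in knockout libraries, against 216, 200 and 197 CPM in control libraries (log2 fold change 0.86, SE 0.09). SARS had 311, 340 and 361 CPM in knockout libraries, against 199, 184 and 177 CPM in control libraries (0.85, SE 0.10). WARS, which interferon is known to induce in many cell types, had 196, 184 and 224 CPM in knockout libraries, against 135, 132 and 127 CPM in control libraries (0.62, SE 0.10). In each of the 3 genes the groups did not overlap, and the edgeR adjusted p was 6.89e-05, 1.02e-04 and 6.84e-04.

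The other 4 cytosolic rises were smaller. MARS, for methionine, had 259, 217 and 251 CPM in knockout libraries, against 182, 170 and 167 CPM in control libraries (1.40-fold, edgeR adjusted p = 0.00236). It shares 13.3% of its annotated exon bases with other genes, DDIT3 among them, whose own transcript was 1.75-fold higher, and without a known strand setting the reads of the shared part cannot be assigned. The same limit holds, among others, for YARS2 (18.1% shared on either strand), WARS (10.6%), HARS (8.5%) and HARS2 (7.0%). KARS, whose gene supplies lysyl-tRNA synthetase to both cytosol and mitochondria, had 351, 380 and 375 CPM in knockout libraries, against 296, 291 and 288 CPM in control libraries (1.26-fold, adjusted p = 0.00613). HARS, for histidine, had 137, 129 and 138 CPM in knockout libraries, against 115, 108 and 108 CPM in control libraries (1.22-fold, adjusted p = 0.0182). QARS, for glutamine, had 235, 209 and 230 CPM in knockout libraries, against 194, 187 and 175 CPM in control libraries (1.21-fold, adjusted p = 0.0258). The groups did not overlap in any of the 4. Scaling by library totals ended the calls of KARS (adjusted p = 0.107), HARS (0.263) and QARS (0.314). HARS also missed the threshold when control library 2 (adjusted p = 0.0818), control library 3 (0.0709) or knockout library 3 (0.0589) was left out. QARS missed it when control library 2 (0.0794), control library 3 (0.0993), knockout library 1 (0.0782) or knockout library 3 (0.0751) was left out.

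The 2 falls were in branched-chain enzymes of the multisynthetase complex. LARS, the leucyl-tRNA synthetase gene (chromosome 5, 146110566 to 146182696), was at 113 CPM in each of the 3 knockout libraries, against 172, 184 and 196 CPM in control libraries (log2 fold change -0.70, SE 0.09, edgeR adjusted p = 1.88e-04). Besides charging leucine, the protein is known as a leucine sensor of the mTORC1 pathway. IARS, for isoleucine (chromosome 9, 92210207 to 92293854), had 292, 236 and 264 CPM in knockout libraries, against 341, 361 and 358 CPM in control libraries (-0.42, SE 0.10, adjusted p = 0.00542). Both calls were lost with the offset for length and GC content, where LARS was at -0.12 (adjusted p = 0.0869) and IARS at 0.02 (adjusted p = 0.823).

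DARS, EPRS, GARS, NARS, RARS and TARS, besides FARSB, did not pass, and their groups overlapped. EPRS is a fused enzyme for glutamate and proline, GARS serves cytosol and mitochondria, and the others charge aspartate, asparagine, arginine and threonine. Their log2 fold changes ran from -0.19 (EPRS) to 0.30 (RARS), with adjusted p from 0.103 (RARS) to 0.977 (TARS). In DARS, NARS, RARS, TARS and GARS, knockout library 2 was the highest of the knockout libraries. RARS, for example, had 174, 259 and 189 CPM in knockout libraries, against 157, 170 and 178 CPM in control libraries. TARS had 285, 383 and 292 CPM in knockout libraries, against 285, 336 and 342 CPM in control libraries. DARS had 104, 136 and 95.3 CPM in knockout libraries, against 109, 133 and 133 CPM in control libraries. In DARS only knockout library 2 exceeded every control library. EPRS had 145, 140 and 137 CPM in knockout libraries, against 138, 171 and 171 CPM in control libraries. GARS had 289, 327 and 269 CPM in knockout libraries, against 308, 326 and 319 CPM in control libraries. NARS had 147, 198 and 159 CPM in knockout libraries, against 150, 174 and 183 CPM in control libraries. Library 2 was thus above every control library in GARS and NARS also, while in EPRS each knockout library was below control libraries 2 and 3. Without knockout library 2, DARS (log2 fold change -0.32, adjusted p = 0.0158), GARS (-0.18, 0.0282) and FARSB (-0.26, 0.00626) passed as lower, and without knockout library 1 RARS passed as higher (0.42, 0.0387).

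VARS, for valine (chromosome 6, 31777518 to 31795752), was listed at 0 reads in all 6 libraries and its mitochondrial partner VARS2 at 3, 1 and 2 reads in knockout and 0 in each control library, so neither was tested. Valine charging is needed in every cell. Both genes lie in the major histocompatibility region. Of the 20 protein-coding genes within 100 kb of VARS, 16 were at 0 in all libraries, with VARS itself counted in both numbers. CLIC1 and LSM2 were among the 16, while HSPA1B (159 summed reads), DDAH2 (146), ABHD16A (50) and HSPA1A (7) held reads. The share at 0 among other protein-coding genes was not computed. With so few reads, the table holds no usable value for either valyl enzyme.

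In the mitochondrial set the largest called rises were in EARS2, RARS2 and AARS2. EARS2, for glutamate (chromosome 16, 23520754 to 23557731), had 140, 113 and 136 CPM in knockout libraries, against 74.1, 66.1 and 64.3 CPM in control libraries (log2 fold change 0.93, SE 0.11, edgeR adjusted p = 1.61e-04). RARS2, for arginine (chromosome 6, 87513459 to 87590028), had 81.6, 98.7 and 83.7 CPM in knockout libraries, against 45.6, 49.0 and 49.0 CPM in control libraries (0.88, SE 0.11, adjusted p = 1.53e-04). AARS2, for alanine, had 73.0, 52.0 and 73.3 CPM in knockout libraries, against 37.7, 39.2 and 36.2 CPM in control libraries (0.81, SE 0.14, adjusted p = 0.00107). The groups were apart in all 3, with knockout library 2 the lowest knockout value for EARS2 and AARS2 and the highest for RARS2.

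Smaller rises followed in 5 genes. PARS2, for proline, had 13.2, 10.8 and 14.1 CPM in knockout libraries, against 7.80, 8.92 and 6.61 CPM in control libraries (1.64-fold, edgeR adjusted p = 0.00495). FARS2, a single-chain enzyme for phenylalanine, had 24.4, 28.2 and 26.2 CPM in knockout libraries, against 19.7, 17.7 and 17.2 CPM in control libraries (1.45-fold, adjusted p = 0.00371). CARS2, which is also known to make cysteine persulfides, had 52.1, 51.1 and 56.4 CPM in knockout libraries, against 40.6, 35.2 and 36.2 CPM in control libraries (1.42-fold, adjusted p = 0.00255). The groups did not overlap in these genes. TARS2, for threonine, had 53.9, 50 and 57.5 CPM in knockout libraries, against 39.9, 37.6 and 36.1 CPM in control libraries (1.42-fold, adjusted p = 0.00242). MARS2, for methionine, had 19.4, 26.2 and 21.9 CPM in knockout libraries, against 16.6, 16.2 and 16.3 CPM in control libraries (1.37-fold, adjusted p = 0.0161). MARS2 missed the threshold when control library 2 (adjusted p = 0.0512) or 3 (0.0513) was left out, and by library totals alone (0.101).

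The mitochondrial falls were in the same pair of amino acids as the cytosolic ones. IARS2 (chromosome 1, 220094132 to 220148041) had 109, 113 and 105 CPM in knockout libraries, against 190, 200 and 200 CPM in control libraries (log2 fold change -0.85, SE 0.09, edgeR adjusted p = 6.20e-05). LARS2 (chromosome 3, 45388561 to 45554726) had 32.9, 18.5 and 28.9 CPM in knockout libraries, against 50.4, 52.9 and 47.0 CPM in control libraries (-0.90, SE 0.19, adjusted p = 0.00283). Neither gene's groups overlapped, and knockout library 2 was the lowest for LARS2.

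HARS2, NARS2, SARS2, WARS2 and YARS2 did not pass. HARS2, which shares a divergent promoter region with HARS, had 57.0, 65.8 and 56.7 CPM in knockout libraries, against 54.5, 49.0 and 45.5 CPM in control libraries (log2 fold change 0.27, adjusted p = 0.063), and passed without control library 1 (0.37, 0.0357). NARS2 had 28.8, 37.5 and 28.0 CPM in knockout libraries, against 34.2, 35.1 and 35.7 CPM in control libraries (log2 fold change -0.16), and passed as lower without knockout library 2 (-0.30, adjusted p = 0.0122). YARS2 was at 0.09 and WARS2 at -0.07. SARS2 had 112, 60 and 23 reads in knockout and 13, 63 and 10 reads in control libraries. The groups overlapped, and its log2 fold change of 1.18 (adjusted p = 0.183) became 2.50 (adjusted p = 0.0143) without control library 2. Other annotated genes share 48.2% of the exon bases of SARS2, and how reads of the shared part were counted is not known.

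Per kilobase of transcript, the cytosolic messages were the more abundant set. The median level was 86.5 CPM per kb in knockout and 64.6 CPM per kb in control cells over the 19 cytosolic genes, and 15.6 and 13.1 CPM per kb over the 15 mitochondrial genes. KARS was the highest in both groups, at 185 ± 7.86 CPM per kb in knockout and 146 ± 1.91 in control cells (SD, n = 3 each). In control cells GARS (130 ± 3.83 CPM per kb) and TARS (120 ± 11.7 CPM per kb) came next, within 1 SD of each other. In knockout cells SARS (176 ± 13.2 CPM per kb), AARS (163 ± 20.9 CPM per kb) and YARS (152 ± 8.17 CPM per kb) followed KARS, and neighbours in that order lay within their spread. AARS was thus the third of 34 tested genes in knockout and the ninth in control cells. CARS was the lowest cytosolic gene, at 8.25 ± 1.99 CPM per kb in knockout and 3.66 ± 0.40 in control cells, below its mitochondrial partner CARS2 in both groups. The sets were not fully apart otherwise. In knockout cells EPRS (28.9 CPM per kb), LARS (23.7) and FARSB (18.0) also lay below RARS2 (39.2) and IARS2 (31.0).

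**Figure D2:**
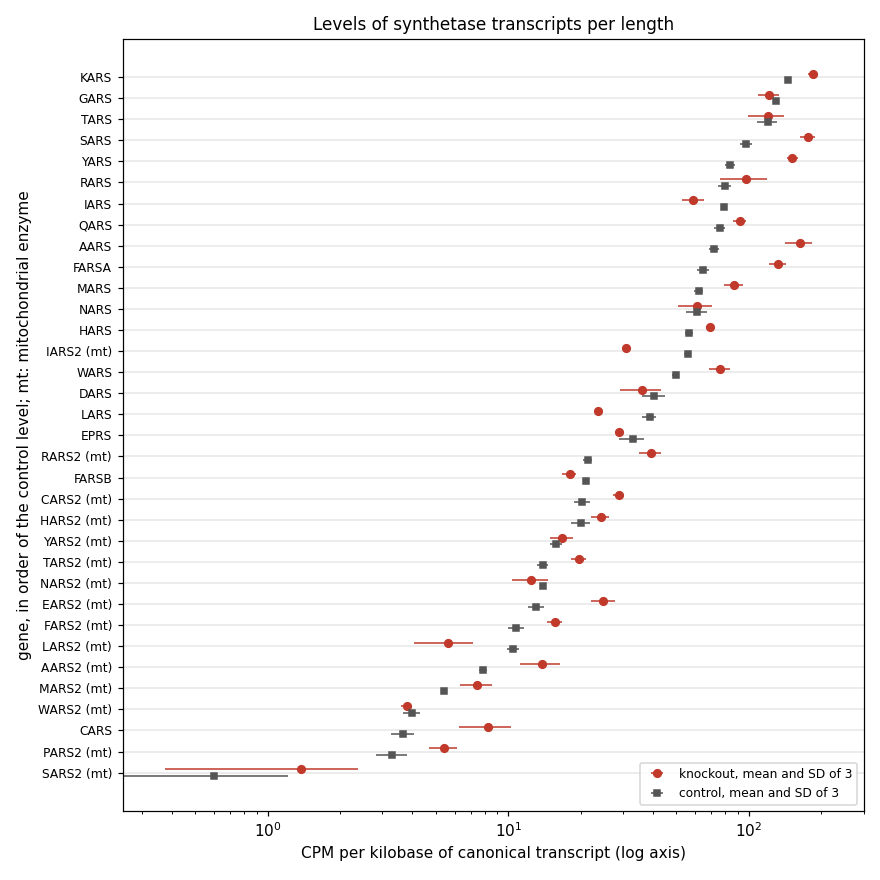
Mean level of each tested synthetase gene in CPM per kilobase of canonical transcript (x axis, log scale), ordered by the control level (y axis); red circles are knockout and grey squares control cells, with bars of 1 SD over 3 libraries. KARS leads both groups at 185 and 146 CPM per kb, most mitochondrial genes (mt) sit in the lower part, and the control bar of SARS2 runs off the axis because its SD exceeds its mean.

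Set against its own mitochondrial partner, a cytosolic gene could move either way. Among 16 read ratios, including FARSA to FARSB, 7 were higher in every knockout than in any control library, 4 were lower and 5 overlapped. EPRS, FARSA, FARSB and FARS2 each enter several ratios. The share over other gene pairs was not computed. Of all single tested genes, 32.6% lay above and 34.2% below without overlap, so separation was common in these data. With exact permutation tests none of the ratios could go below p = 0.1 (0.1455 adjusted over the 16). The YARS to YARS2 ratio was 11.8, 8.89 and 10.8 in knockout and 6.13, 6.36 and 5.83 in control libraries. The WARS to WARS2 ratio was 19.7, 16.9 and 20.6 in knockout and 11.7, 13.2 and 10.9 in control libraries. In the other direction, EPRS to EARS2 was 1.03, 1.24 and 1.01 in knockout and 1.86, 2.58 and 2.66 in control libraries. RARS to RARS2 was 2.13, 2.63 and 2.26 in knockout and 3.44, 3.46 and 3.63 in control libraries.

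Sorted by assembly, 7 of the 11 tested cytosolic genes outside the multisynthetase complex rose and 0 fell, with a median log2 fold change of 0.62. For these splits, the shares over all tested genes were 28.9% higher and 30.8% lower. Of the 8 genes of the complex (DARS, EPRS, IARS, KARS, LARS, MARS, QARS and RARS), 3 rose and 2 fell, with a median of 0.06. The genes of the complex also had the lower GC content, a median of 42.8% against 51.3% outside it. By catalytic class, 9 of the 16 class I genes rose and 4 fell, and 9 of the 17 class II genes rose and 0 fell. Without knockout library 2, 4 genes fell in each class (33.3% of all tested genes). With each library's trend along length and GC content removed, 2 fell in class I and 1 in class II (29.8% of all genes in that fit). These splits are counts of genes, and the difference between the subsets was not tested.

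The fold changes of synthetase genes ran with the GC content of their transcripts. The 10 cytosolic genes that rose had 47.3% to 61.3% GC, and the 9 that fell or did not pass had 38.1% to 47.1%, so the ranges of GC content did not meet. Across the 19 cytosolic genes, which share the same libraries, Spearman's rho between GC content and log2 fold change was 0.75, and with transcript length -0.54. Across the 15 mitochondrial genes rho was 0.42 with GC content and -0.24 with length. The mitochondrial ranges overlapped, at 41.8% to 57.7% GC for rises, 43.5% to 50.7% for falls and 42.4% to 61.4% for genes that did not pass. RARS2, for example, rose with 41.8% GC, and LARS2 fell with 50.7% GC. All tested genes showed the trend as well, with rho of 0.48 for GC content and -0.41 for length over 13291 genes. Their median log2 fold change was -0.63 in the lowest of 4 GC bins and 0.43 in the highest.

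**Figure D3:**
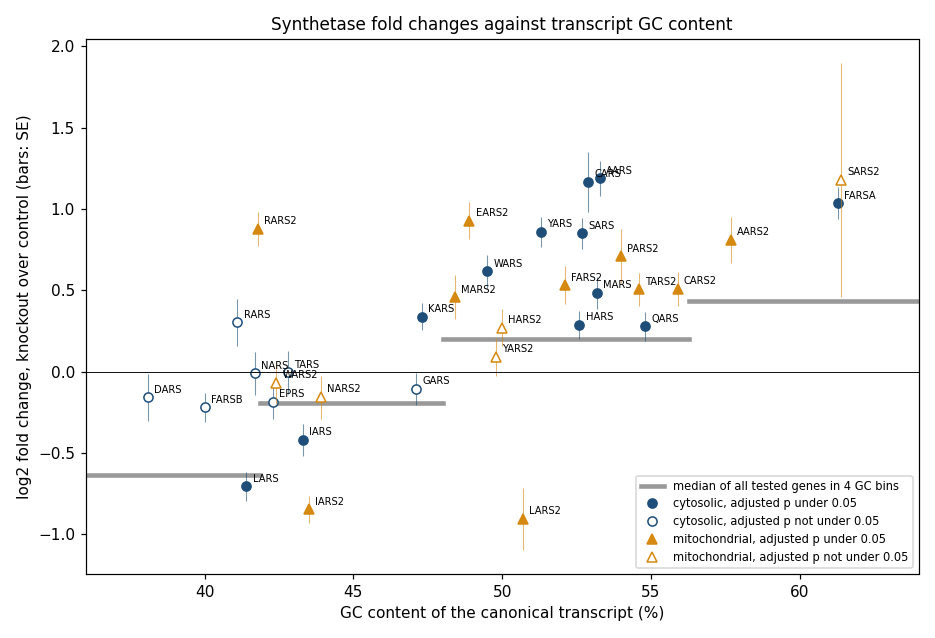
Log2 fold change of each tested synthetase gene, knockout over control (y axis, bars of 1 SE), against the GC content of its transcript in percent (x axis); filled symbols passed an adjusted p of 0.05, and grey lines give the median of all tested genes in 4 GC bins. Filled blue circles above 0 all lie at 47.3% GC or more, and RARS2 stands above its bin at 41.8% GC.

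An offset that removes each library's trend along transcript length and GC content moved the cytosolic and mitochondrial counts in opposite directions. Of 19 cytosolic genes 14 rose and 1 fell (median 0.33), and of 15 mitochondrial genes 5 rose and 2 fell (median 0.18), against 31.2% higher and 29.8% lower over the 13291 genes with both values. DARS (0.33), EPRS (0.37), FARSB (0.64), NARS (0.28), RARS (0.49) and TARS (0.20) passed as higher, and HARS (-0.13) and QARS (-0.10) lost their calls. GARS became the 1 fall, with a log2 fold change of -0.20 (adjusted p = 0.0227). Within the complex 5 of 8 genes then rose and 0 fell (median 0.18), and outside it 9 of 11 rose and 1 fell (median 0.44). Among mitochondrial genes EARS2 was at 1.12, RARS2 at 1.07, AARS2 at 0.71, IARS2 at -0.54 and LARS2 at -0.86, while CARS2 (0.02), FARS2 (0.10) and PARS2 (0.33) no longer passed. The offset also removes any difference between the groups that truly follows length or GC content, so both sets of values are given.

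**Figure D4:**
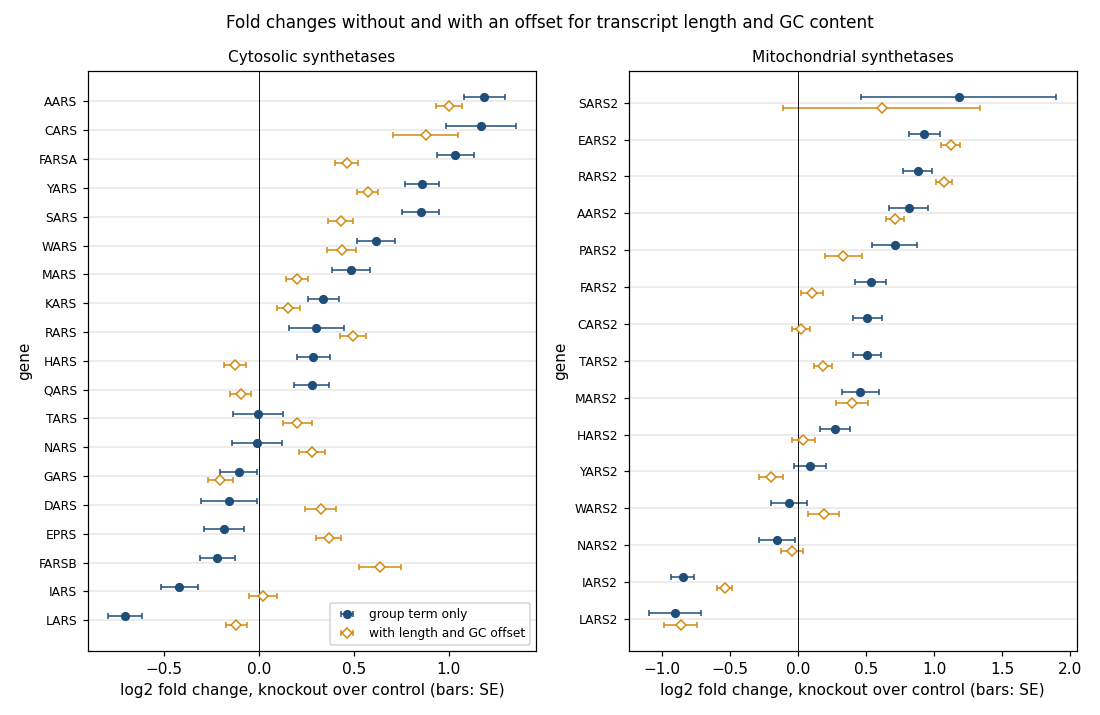
Log2 fold changes, knockout over control (x axis, bars of 1 SE), of each tested synthetase gene (y axis) in the fit with group as the only term (filled blue) and with the length and GC offset (open orange). FARSB moves from -0.22 to 0.64 and LARS from -0.70 to -0.12, while FARSA (1.04 and 0.46), RARS2 (0.88 and 1.07) and LARS2 (-0.90 and -0.86) stay on their side.

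Calls of 12 of the 34 tested genes held in the same direction under each of the 17 alternative settings. The same count was not made over all tested genes, of which 59.7% were called in the main fit. Whether 12 is many for a set of this size was thus not tested. In the cytosolic set these were the rises of AARS, CARS, FARSA, MARS, SARS, WARS and YARS, 7 in all, with log2 fold changes across settings from 0.20 (MARS) to 1.31 (CARS). In the mitochondrial set they were the rises of AARS2, EARS2 and RARS2 and the falls of IARS2 and LARS2.

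ATF4 is known to act through a composite site called the C/EBP-ATF response element, and the letters TGATGNAA, which fit its core, were searched on both strands of RefSeq promoter windows from 250 bases before to 50 bases after each gene's RefSeq start (GRCh38.p14). They occurred in 6 of 16 cytosolic windows and in 1 of 14 mitochondrial windows, that of YARS2. The share over all 35116 windows was 3.62%, and over the 15001 windows of tested genes 1.98%. For each named gene only the first listed window was searched. The shares count every window, and some genes have several, so the units are not alike. The table holds no window for DARS, LARS, VARS, YARS, AARS2 and VARS2. In AARS, CARS, IARS, MARS and TARS the letters read TTGCATCA on the gene's strand and in NARS TGATGCAA, the same site on the opposite strand, so the 6 cytosolic genes share one 8-letter sequence. Distances count from the start that RefSeq gives, which is not the outer GENCODE limit of the gene used for the coordinates above. The first matched base lies 187 bases upstream in AARS, 13 in IARS, 4 in MARS and 2 in CARS. It lies 2 bases downstream in TARS and 14 in NARS. In MARS and CARS the 8 letters thus run across the start. The RefSeq start of AARS is at base 70289506 of chromosome 16 and that of MARS at base 57488068 of chromosome 12, both inside the GENCODE limits of these genes. The first listed windows of ASNS, CHAC1, TRIB3, DDIT3, SESN2 and ATF4 itself were searched too. ASNS and CHAC1 held a match, while ATF4, TRIB3, DDIT3 and SESN2 held none. Below, 60 bases on the gene's strand are shown for the 6 cytosolic genes, with the matched letters in capitals, to let the shared sequence be compared. ASNS, the asparagine synthetase gene and a textbook target of ATF4, is added.
AARS (chr16:70289660-70289719, minus strand): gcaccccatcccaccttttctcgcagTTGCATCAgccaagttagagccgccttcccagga
CARS (chr11:3057418-3057477, minus strand): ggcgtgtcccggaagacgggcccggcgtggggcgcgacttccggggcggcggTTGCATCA
IARS (chr9:92293698-92293757, minus strand): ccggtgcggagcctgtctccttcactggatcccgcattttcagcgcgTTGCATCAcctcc
MARS (chr12:57488012-57488071, plus strand): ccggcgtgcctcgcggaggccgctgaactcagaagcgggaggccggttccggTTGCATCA
NARS (chr18:57621815-57621874, minus strand): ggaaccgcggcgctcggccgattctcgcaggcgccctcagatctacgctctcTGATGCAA
TARS (chr5:33440915-33440974, plus strand): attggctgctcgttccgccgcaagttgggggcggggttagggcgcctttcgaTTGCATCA
ASNS (chr7:97872443-97872502, minus strand): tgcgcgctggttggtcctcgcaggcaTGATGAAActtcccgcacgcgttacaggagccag

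The genes that hold the site did not share a direction. AARS, CARS and MARS rose, NARS (log2 fold change -0.01) and TARS (-0.0048) did not pass, and IARS fell; with the length and GC offset NARS and TARS passed as higher and IARS did not pass. Conversely, FARSA, HARS, KARS, QARS, SARS and WARS rose with no match in the first listed window of each. This says only that these letters are absent there, and any further windows of these genes were not searched. A match is a description of the sequence and was not tested as a site of binding.

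Genes that work beside the synthetases were described from a list of 30, of which 28 were tested. Of these 14 rose, 3 fell and 11 did not pass, with a median log2 fold change of 0.29, and over all tested genes 28.9% rose and 30.8% fell. The list also holds ATF4 and ASNS, TRIB3, CHAC1, DDIT3 and SESN2, genes of the ATF4 response rather than of tRNA handling. Each of these passed as higher and is counted among the 14 rises, so the 14 does not describe tRNA genes alone. ATF4 had 495, 572 and 505 CPM in knockout libraries, against 312, 286 and 296 CPM in control libraries (log2 fold change 0.81, SE 0.09, edgeR adjusted p = 1.10e-04; 0.33 with the offset). ASNS had 266, 380 and 293 CPM in knockout libraries, against 89.6, 84.6 and 89.6 CPM in control libraries (1.83, SE 0.14), and the pseudokinase gene TRIB3, another ATF4 target, had 243, 229 and 232 CPM in knockout libraries, against 78.7, 77.3 and 69.0 CPM in control libraries (1.65, SE 0.09). Both rises were larger than that of any called synthetase gene. EIF2AK4, which encodes the uncharged-tRNA sensor GCN2, fell, with 61.2, 42.6 and 62.9 CPM in knockout libraries, against 116, 124 and 116 CPM in control libraries (-1.09, SE 0.15, adjusted p = 2.55e-04).

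Of the 3 scaffolds of the complex, 1 passed the test. AIMP1 had 55.4, 78.6 and 58.9 CPM in knockout libraries, against 50.7, 65.9 and 67.3 CPM in control libraries (log2 fold change 0.07, SE 0.16). EEF1E1 had 4.08, 7.38 and 4.92 CPM in knockout libraries, against 5.22, 5.72 and 7.88 CPM in control libraries (-0.20, SE 0.25), and neither gene passed. AIMP2 had 91.3, 97.6 and 85.9 CPM in knockout libraries, against 76.3, 73.8 and 70.3 CPM in control libraries (0.32, SE 0.09, edgeR adjusted p = 0.0165); leaving out control library 2 (0.0627) or control library 3 (0.0735) ended this call. With the length and GC offset the calls exchanged: AIMP1 passed as higher (0.58, adjusted p = 8.26e-05) and AIMP2 did not pass (-0.14, adjusted p = 0.073). Enzymes that act on charged tRNA moved in both directions. PSTK and SEPSECS act in turn to convert seryl-tRNA to selenocysteinyl-tRNA, and PSTK rose 2.44-fold (6.62, 7.86 and 5.77 CPM in knockout libraries, against 3.38, 2.56 and 2.39 CPM in control libraries) while SEPSECS fell 2.27-fold (1.75, 1.13 and 2.31 CPM in knockout libraries, against 3.90, 4.32 and 3.62 CPM in control libraries). The fall of SEPSECS did not pass with the offset (-0.37, adjusted p = 0.238). MTFMT, which formylates the mitochondrial initiator methionyl-tRNA, fell 1.51-fold (7.70, 8.15 and 8.04 CPM in knockout libraries, against 12.5, 12.9 and 10.8 CPM in control libraries).

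**Figure D5:**
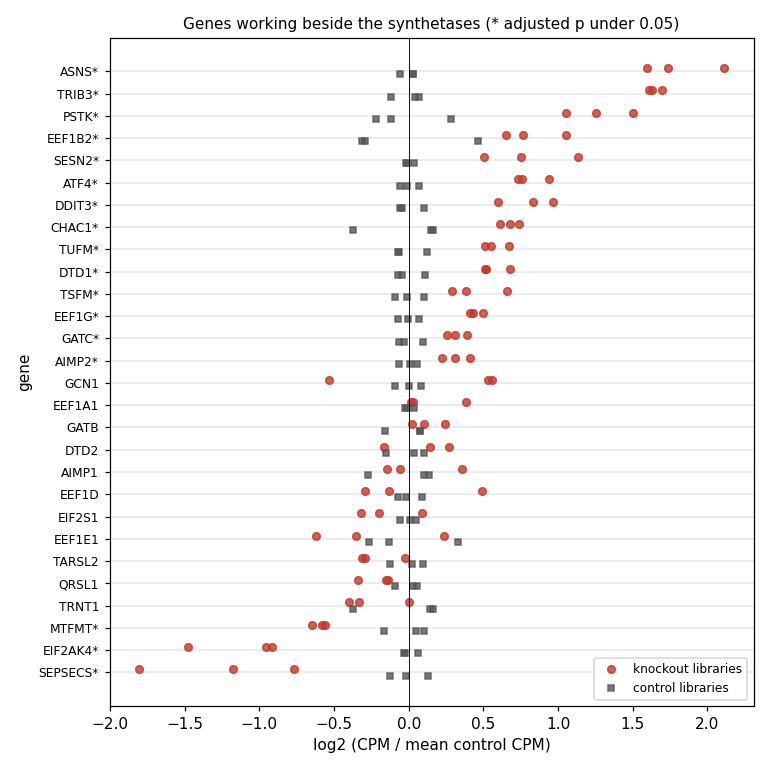
Level in each library of the 28 tested partner genes, ATF4 and genes of its response included, as log2 of CPM over the mean control CPM (x axis), ordered by fold change (y axis). Red circles are knockout and grey squares control libraries, and an asterisk marks an adjusted p under 0.05. ASNS and TRIB3 lie highest, at 1.83 and 1.65, and SEPSECS and EIF2AK4 lowest, at -1.18 and -1.09.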

How the data were processed

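The authors deposited raw read counts, 1 row for each gene symbol. Per the labels' design text, the authors filtered reads, mapped them to GRCh38 with HISAT2 (version 2.0.4 per the submitters' processing notes) and counted them with HTSeq; the sources used here give neither its version nor the strand setting and annotation. Columns were tied to samples by title.

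Knockout was tested against control with edgeR 4.0.16 (R 4.3.3): TMM factors, filterByExpr (14398 genes kept), quasi-likelihood test with group as the only term, a prior count of 0.125 and Benjamini-Hochberg adjustment over all tested genes, with calls at an adjusted p under 0.05. The overall biological coefficient of variation was 14.1%. SE is the log2 fold change over the root of F. The fit was checked on simulated counts. Transcript length, GC content and coordinates come from canonical GENCODE transcripts on GRCh38, matched by symbol for 92.3% of tested genes; the offset removed lowess trends (span 0.3) along both, per library.

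Alternatives were DESeq2 1.42.0, limma-voom (limma 3.58.1), median-ratio, upper-quartile and library-total scaling, all genes with a read, a filter of over 1 CPM in each library of 1 group or both, robust dispersion, the replicate number as a block, the length and GC offset with and without that block, and leaving out each library. Values in each library are given for called members, for members whose call was lost or gained with the offset or without 1 library, for up to 4 called partner genes in each direction with the smallest p, and for the scaffolds. The members and lists were chosen with earlier results of these data known. How reads that fit several genes were counted is not known.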

Additional observations from a re-analysis of the deposited data

How the results depend on the processing

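Upper-quartile or median-ratio factors, DESeq2, limma-voom and robust dispersion left every call among the 34 tested members as it was. The signs of NARS and TARS, which did not pass in any of these fits, turned with DESeq2 (0.0014 and 0.0062), median-ratio factors (0.0013 and 0.0062) and upper-quartile factors (0.0125 and 0.0178). With all genes that had a read kept, HARS (edgeR adjusted p = 0.0691) and QARS (0.0684) lost their calls. SARS2 passed as higher in that fit (log2 fold change 1.16, adjusted p = 0.00282). With the filter of over 1 CPM, HARS2 passed as higher (0.285, adjusted p = 0.0492) and SARS2 was not kept. Leaving out 1 library gave 8 to 10 cytosolic and 7 to 9 mitochondrial rises, 2 to 5 cytosolic and 2 to 3 mitochondrial falls, a cytosolic median of 0.27 to 0.33 and a mitochondrial median of 0.47 to 0.57. Over all tested genes the same fits gave 24.4% to 31.7% higher and 24.4% to 33.3% lower. With library totals only, 5 cytosolic genes fell (37.8% of all tested genes) and the medians were 0.12 (cytosolic) and 0.34 (mitochondrial). Deviations of same-numbered libraries correlated at 0.02, -0.044 and 0.011, which gives no sign that replicate numbers mark pairs. With 3 libraries in each group this check cannot exclude pairing. With the replicate block 8 cytosolic genes rose and 2 fell (27.1% and 30.7% of all tested genes), and HARS (adjusted p = 0.055) and QARS (0.0647) lost their calls.

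With the length and GC offset, cytosolic falls went to 1 (1 also with the block), mitochondrial rises to 5 (4 with the block), the cytosolic median to 0.33 (0.32 with the block) and the mitochondrial median to 0.18 (0.18 with the block). Over all genes in these fits 31.2% rose and 29.8% fell, and with the block 29.3% rose and 28.2% fell. Among genes past the threshold with or without the offset, signs turned, with the value for the offset first and the offset with the block second, in DARS (0.33, 0.32), EPRS (0.37, 0.37), FARSB (0.64, 0.64), HARS (-0.13, -0.13), IARS (0.021, 0.016), NARS (0.28, 0.28), QARS (-0.10, -0.10) and TARS (0.20, 0.20), and among partner genes in AIMP2 (-0.14, -0.14), QRSL1 (0.35, 0.35), EEF1D (-0.51, -0.54), EEF1G (-0.060, -0.060) and EIF2S1 (0.50, 0.50). WARS2 and YARS2, and the partner genes GATB, TRNT1, EEF1E1 and TARSL2, also turned sign but did not pass either way. The cause was not tested. Depth limits SARS2, which had at most 112 reads in a library.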
